A study of Mus musculus with 12 samples.

Results

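The regions described here are the mouse clusters of replication-dependent histone genes, taken as 3 windows of the mm10 genome build. Hist1 proximal spans 350 kb of chromosome 13 from position 21700000, Hist1 distal the 260 kb of the same chromosome up to position 23780000, and Hist2 is chr3:96200000-96280000. They were chosen by position: every interaction with an anchor whose midpoint lies in a window was taken, in each of the 6 deposited tables. In Hi-C, 6475 of 10237359 interactions in ESC and 6801 of 10708066 in NCC met this rule, holding 11877 of 20745652 and 11627 of 21228099 read pairs on chromosomes 1 to 19 and X. In FGFR1 HiChIP it took 1288 of 1921126 interactions in ESC and 1481 of 2388222 in NCC. Per window, Hi-C held 3202 interactions in ESC and 3371 in NCC at Hist1 proximal, 2366 and 2483 at Hist1 distal, and 1011 and 1087 at Hist2.

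The study mapped genome contacts in E14Tg2A mouse embryonic stem cells (ESC), grown with 100 U/mL of leukemia inhibitory factor (LIF), and in neuronal committed cells (NCC), which are the same cells after 48 h in 1 μM retinoic acid without LIF. Hi-C joins and sequences DNA ends that lay close together in the nucleus, and HiChIP enriches such pairs with an antibody, here against the receptor tyrosine kinase FGFR1, studied for its nuclear form, or the architectural protein CTCF. An interaction is a pair of anchors, its score is the number of read pairs found between them, and each library had its anchors called by itself. Both biological replicates of a cell type and assay were merged before deposit. Each value below is therefore from 1 pooled library without a replicate error, and the tests compare pooled libraries rather than conditions. A contact made in more cells and a contact made more often per cell cannot be told apart in such bulk material. NCC are a retinoic acid culture and not sorted neurons, both cell types stem from 1 line, and no library without antibody enrichment other than Hi-C serves as a control for HiChIP.

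Replication-dependent histone genes supply the core histones H2A, H2B, H3 and H4 and the linker histone H1 when DNA is copied. Their messages carry no poly(A) tail and end instead in a short stem-loop that the protein SLBP binds. In the nucleus the clusters lie at the histone locus body, where NPAT and the processing factors collect. In mouse, the large Hist1 cluster is broken by a long run of vomeronasal receptor genes (Vmn1r), which are used in olfactory neurons of the vomeronasal organ.

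The windows hold 62 protein-coding histone genes of the GENCODE vM21 annotation. Hist1 proximal has 23 (1 of H1, 7 of H2A, 8 of H2B, 2 of H3 and 5 of H4). Hist1 distal has 29 (5, 5, 6, 7 and 6 in the same order), among them 5 of the 6 linker histone genes of the windows. Hist2 has 10 (4 of H2A, 2 of H2B, 3 of H3 and 1 of H4). The Hist1 windows are separated by 1470 kb, of which 1169 kb from the first to the last of 36 Vmn1r genes (chr13:22084440-23253906) hold no tRNA gene. Genes for tRNA, which RNA polymerase III transcribes, are frequent around them in the RefSeq annotation: 33 in Hist1 proximal, 3 in Hist1 distal, none in Hist2, and 32 in the 120 kb before Hist1 distal, which start at position 23400000.

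The stem-loop is printed first because it is the sequence that marks a replication-dependent histone gene, and because its form differs between histone families. A search of the 150 bases after each stop codon for GGNNCTTNNNAGNNCC with a fully paired stem, on the coding strand, found it in 60 of the 62 histone genes of the windows. It was found in 10 of 21518 other protein-coding genes (0.0465%), of which 5 are the histone genes outside the windows. The genes without a match were Hist2h2be and Hist1h2an. The sequences below, from the GRCm38.p6 assembly (the mm10 build), are written 5′ to 3′ on the coding strand with the stem and loop in capitals, and belong to genes whose contacts are described further on.
Hist1h2ah, chr13:22035120-22035147, minus strand: ccaaaGGCTCTTTTCAGAGCCacacaca
Hist1h1e, chr13:23621775-23621802, minus strand: ccaaaGGCTCTTTTCAGAGCCacccaca
Hist2h2bb, chr3:96270166-96270193, plus strand: caaaaGGCTCTTTTCAGAGCCactttag
Hist1h3g, chr13:23535884-23535911, plus strand: ttaaaGGCTCTTCTTAGAGCCacccatc
Hist1h4k, chr13:21750143-21750170, minus strand: caaaaGGCCCTTTTCAGGGCCacccact
Hist2h4, chr3:96262932-96262959, minus strand: ctaacGGCCCTTTTTAGGGCCaaccaca
The form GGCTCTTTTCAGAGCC stood in 38 genes (5 of H1, 13 of H2A, 12 of H2B and 8 of H3). The 12 H4 genes used 4 forms, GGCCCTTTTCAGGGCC in 7 of them, and shared none with the 48 genes of the other families that have a stem-loop. Hist1h4i of Hist1 proximal and Hist2h4 of chromosome 3 had the same form, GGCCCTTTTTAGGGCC.

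The internal promoter of tRNA genes is shown next, because the strongest contacts of Hist1 proximal reached a tRNA gene stretch. The B box, searched as GTTCNANNC near the end of each tRNA gene on both strands, was found in 29 of the 33 tRNA genes of Hist1 proximal, in 27 of the 32 in the 120 kb before Hist1 distal and in 371 of 408 tRNA genes of the 20 chromosomes. It is in capitals below, with 6 bases on each side, in tRNA genes of the same kind from both ends of the gap.
n-TSaga5 (serine, Hist1 proximal), chr13:21919270-21919290, plus strand: gcgcagGTTCGAATCctgccg
n-TSaga7 (serine, before Hist1 distal), chr13:23500963-23500983, minus strand: gcgcagGTTCGAATCctgccg
n-TVaac3 (valine, Hist1 proximal), chr13:22015797-22015817, minus strand: tccccgGTTCGAAACcgggcg
n-TVaac2 (valine, before Hist1 distal), chr13:23401079-23401099, minus strand: tccccgGTTCGAAACcgggcg
The serine form stood in 5 genes of Hist1 proximal and 2 of the stretch, and the valine form in 2 and 3.

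Histone genes are near copies of each other, and how reads of 75 bases that match several copies were placed is not given in the sources used here, so values in repeated sequence are uncertain. Of all 75-base sequences, 15.7% in Hist1 proximal, 7.09% in Hist1 distal and 17.1% in Hist2 occur more than 1 time in the genome, against 1.42% in the 120 kb before Hist1 distal and 22.3% over the Vmn1r genes. Few are shared between the Hist1 windows: 1.32% of those in Hist1 proximal are also in Hist1 distal. Of the 62 genes, 44 lay in an anchor in both Hi-C libraries, 9 in 1 of them and 9 in none. The median share of repeated sequence was 30.7% in the first, 51.6% in the second and 91.0% in the last of these sets. Genes that lie in no anchor, such as Hist1h4m, Hist1h2ao and Hist1h2bq in the middle of Hist1 proximal, have no measured strength rather than a low one.

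Contacts within a window did not differ detectably between the cell types in Hi-C. Read pairs that join anchors at least 20 kb apart numbered 928 in ESC and 947 in NCC within Hist1 proximal, a ratio of NCC over ESC of 0.997 (95% interval 0.910 to 1.09) after scaling to the same number of read pairs. Within Hist1 distal they numbered 471 and 460 (0.954, 0.838 to 1.09), and within Hist2 72 and 69 (0.937, 0.663 to 1.32). The exact binomial test with Benjamini-Hochberg adjustment over 18 comparisons of contacts gave adjusted p of 1, 0.983 and 1. These intervals cover counting error only, and differences as large as their bounds could not be detected. Among tiles of the same length over the genome, 53.1%, 45.0% and 44.4% had a lower ratio.

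Against bins at the same distances on their chromosome, internal contacts in Hi-C were raised in all windows, though for Hist2 not once coverage was taken into account. Over bins at least 20 kb apart, Hist1 proximal held 1.70 times the expected number in ESC (1.60 to 1.81) and 1.66 in NCC (1.56 to 1.76). Hist1 distal held 1.26 (1.16 to 1.37) and 1.24 (1.14 to 1.34), and Hist2 1.95 (1.60 to 2.35) and 1.53 (1.22 to 1.89). For Hist2 the value turned to 0.817 and 0.653 when the expected number also took the coverage of the bins into account, while the Hist1 windows stayed at 1.32 to 1.52. Per read-pair end, Hist1 proximal had more internal read pairs than 78.9% of tiles of its length in ESC and 87.1% in NCC, but Hist1 distal more than only 43.2% and 56.9%, and Hist2 more than 48.7% and 43.9%. The read-pair ends of Hist2 were dense, with 31.9 per kb in ESC and 32.4 in NCC, 2.03 and 2.01 times the genome mean. In HiChIP, internal contacts of the Hist1 windows were 1.39 to 2.95 times the number expected at equal distance. With coverage taken into account they were 0.796 to 1.24 times, and no interval lay above 1.

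The bin pairs with the most read pairs were named by rule in each window. In Hist1 proximal, the bin with Hist1h4k, Hist1h2ak and Hist1h2bn (chr13:21750001-21760000) and the bin with Hist1h1b, Hist1h3i, Hist1h2an and Hist1h2bp (chr13:21780001-21790000) shared 14 read pairs in ESC and 25 in NCC, 4.53 and 8.11 times the expected number. The other named pairs of this window joined bins without a histone gene between 21980001 and 22030000, with 29 and 30 read pairs in ESC and 21 and 20 in NCC. In Hist1 distal, a bin without a histone gene (chr13:23700001-23710000) and the bin of Hist1h1c, Hist1h3c and Hist1h2bb (chr13:23740001-23750000) shared 35 read pairs in ESC and 3 in NCC. That is 15.3 times the expected number in ESC (10.6 to 21.2) and 1.30 in NCC (0.269 to 3.81). In Hist2, the bin of Hist2h4, Hist2h3b and Hist2h2bb (chr3:96260001-96270000) was in each named pair, and with the bin of Hist2h2ab, Hist2h2ac and Hist2h2be (chr3:96220001-96230000) it shared 16 read pairs in ESC and 15 in NCC, 7.90 and 7.79 times the expected number. These pairs were picked for their read pairs, so their values are a description, and an anchor that is placed in a neighbouring bin in the other library moves its read pairs with it.

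The Hist1 windows touched each other across the gap more often than bins at the same distance. In Hi-C, 120 read pairs in ESC and 160 in NCC joined Hist1 proximal with Hist1 distal. Against all pairs of 10 kb bins of chromosome 13 at equal distance this was 6.06 times (95% Poisson interval 5.03 to 7.25) and 7.69 times (6.54 to 8.97) the expected number, and 4.62 and 6.28 times when the coverage of both bins was also taken into account. FGFR1 HiChIP gave 7.54 (4.78 to 11.3; 23 read pairs) in ESC and 8.67 (6.10 to 11.95; 37 read pairs) in NCC. CTCF HiChIP gave 7.89 (3.61 to 14.98) on 9 read pairs and 6.43 (2.77 to 12.7) on 8. With coverage taken into account, the HiChIP values fell to 3.64 in ESC and 4.51 in NCC for FGFR1. For CTCF they fell to 3.28 in ESC and 2.54 in NCC. These point values lay below those of Hi-C in the same cell type. Every interval lay above 1, with and without coverage taken into account.

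**Figure D1:**
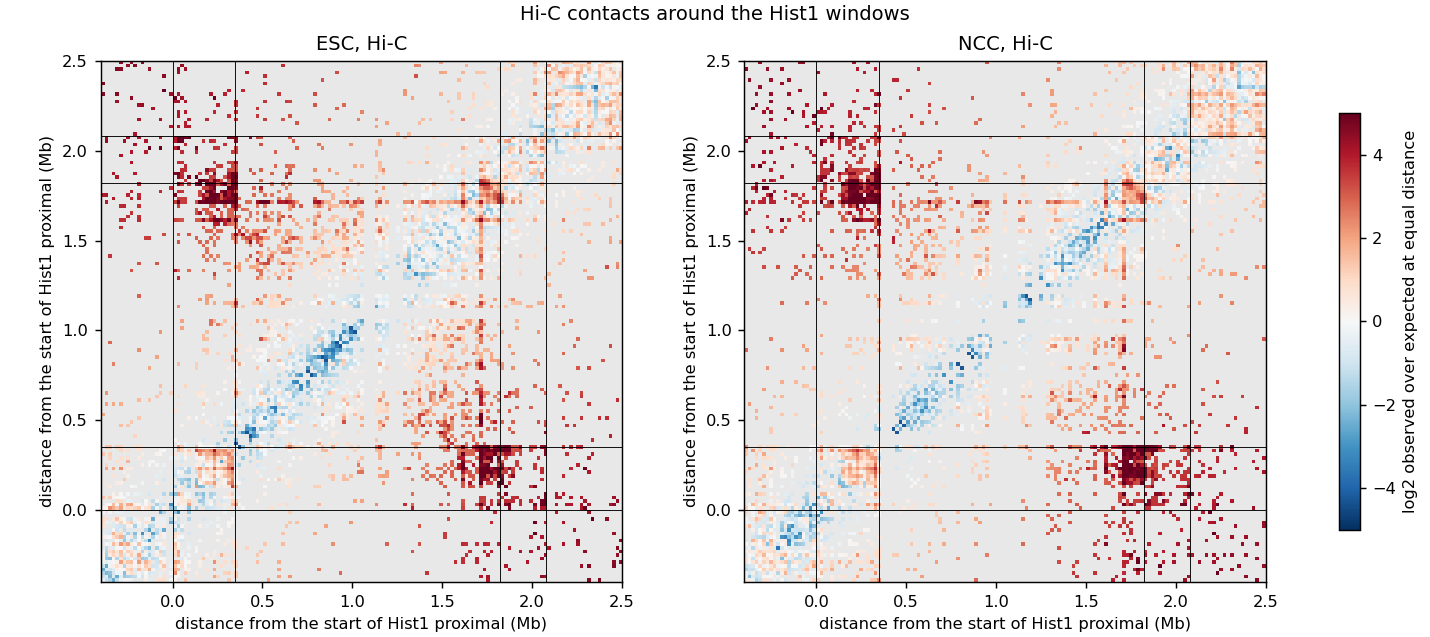
Hi-C contacts around the Hist1 windows in ESC (left) and NCC (right), in 20 kb bins. Both axes give the distance from the start of Hist1 proximal in Mb, the lines mark the borders of both windows, color is log2 of observed over expected read pairs at equal distance, and grey bins hold no read pair; the dark red block off the diagonal, at the border of Hist1 distal, joins Hist1 proximal with Hist1 distal and the 120 kb before it in both cell types.

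Placed side by side, the same geometry elsewhere gave lower values. Hist1 proximal and the window at equal distance on its other side shared 25 read pairs in ESC and 19 in NCC, 1.44 (0.935 to 2.13) and 1.05 (0.630 to 1.63) times the expected number. Hist1 distal and its counterpart on the other side shared 12 and 5, 0.572 (0.296 to 1.00) and 0.227 (0.0736 to 0.529) times. When a pair of windows of the same sizes and gap was moved along the 20 chromosomes in steps of 50 kb, 99.84% of 27713 placements in ESC and 99.89% in NCC lay below the Hist1 pair. The median placement had 0.961 and 0.953. Neighbouring placements overlap, and the 3 of 1439 placements on chromosome 13 at or above the Hist1 pair include the pair itself, so these shares describe the genome and are not a test.

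**Figure D2:**
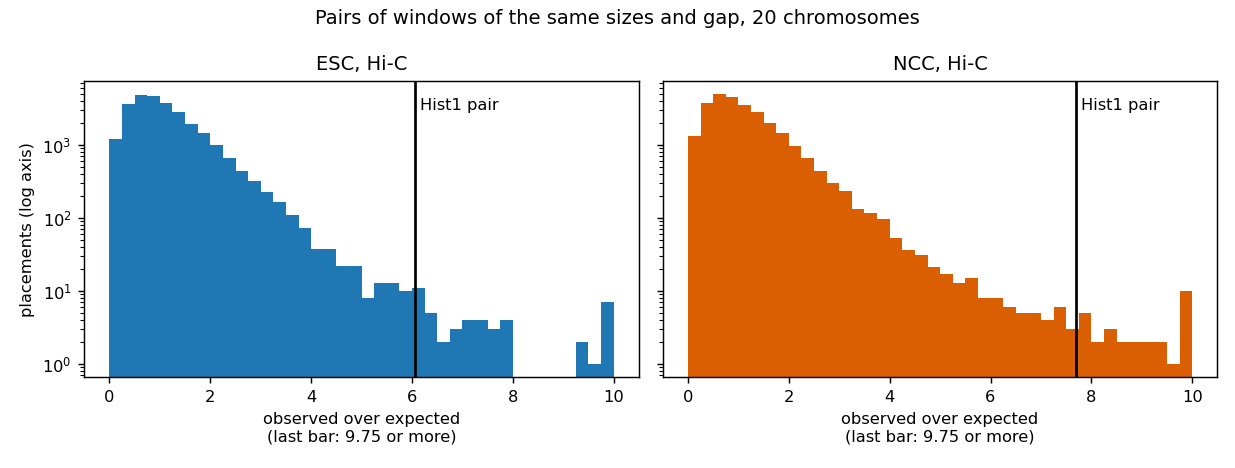
Number of placements (log axis) by observed over expected Hi-C read pairs between windows of the sizes and gap of the Hist1 pair, for ESC (left) and NCC (right). The line is the Hist1 pair, at 6.06 in ESC and 7.69 in NCC, where 99% of placements lie below 3.76 and 3.94.

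Within the windows, with bins split by histone genes alone, this contact was highest between bins that hold a histone gene. The 59 read pairs in ESC and 66 in NCC between histone gene bins of both windows were 17.0 (12.9 to 21.9) and 18.3 (14.2 to 23.3) times the expected number. Bins without a histone gene on both sides had 7 and 18 read pairs, 1.38 (0.556 to 2.85) and 3.37 (1.99 to 5.32) times. Between the other combinations the values were 4.12 to 6.86. In 50 kb parts, the most read pairs joined the last 50 kb of Hist1 proximal (with Hist1h2ah, Hist1h2bk, Hist1h4i, Hist1h2ag and Hist1h2bj) with the first 50 kb of Hist1 distal, 20 in ESC and 30 in NCC, 24.2 and 35.5 times the expected number. Both parts also hold tRNA genes, 6 in that part of Hist1 proximal and all 3 of Hist1 distal. In ESC the next by number were parts near the outer ends, chr13:21750000-21800000 and chr13:23720000-23770000, with 11 read pairs (25.7 times) against 6 in NCC (14.6 times).

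The contact between the windows was also raised in bins with little sequence that recurs in the genome. In bins with at most 5% of repeated 75-base sequences, 36 read pairs in ESC and 37 in NCC joined the windows, 4.22 (2.96 to 5.85) and 4.09 (2.88 to 5.64) times the expected number. They are 19 of the 35 bins of Hist1 proximal and 18 of the 26 of Hist1 distal. This limit was chosen after the data were seen. Of the histone gene bins of Hist1 proximal, only chr13:21730001-21740000 (2.52%) and chr13:21770001-21780000 (0.15%) met it. The contact between histone gene bins was therefore not tested by itself in such sequence.

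Between cell types, the contact over the gap was 1.30 times higher in NCC (1.02 to 1.67). The exact binomial p was 0.0313, and 0.188 after adjustment over the 18 comparisons, so it did not pass. Of 10418 placements of the same geometry with at least 50 read pairs, 81.0% had a lower ratio of NCC over ESC. In bins with little repeated sequence the ratio was 1.00. FGFR1 HiChIP gave 1.34 (0.774 to 2.36), and turned to 0.864 without the strongest 1% of anchors, and CTCF HiChIP gave 1.02 (0.344 to 2.99).

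The largest contact of Hist1 proximal lay just before Hist1 distal, at the tRNA genes. This stretch was not among the regions set in advance, so its values are a description and not a test. The 120 kb with 32 tRNA genes and Hist1 proximal shared 294 read pairs in ESC and 315 in NCC, 25.2 (22.4 to 28.2) and 25.8 (23.1 to 28.8) times the number expected at equal distance. With coverage taken into account the values were 7.38 (6.56 to 8.27) and 9.07 (8.10 to 10.1), above those of Hist1 distal in each cell type. The ratio of NCC over ESC was 1.05 (0.890 to 1.23). Here the stretch is nearly free of repeated sequence, and in bins with at most 5% of it the values were 30.8 in ESC and 29.2 in NCC.

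Along the chromosome the profile rose and fell steeply around this stretch. The 50 kb bin with the highest value (chr13:23400001-23450000) held 17 tRNA genes and Abt1, a nucleolar protein gene, and shared 161 read pairs with Hist1 proximal in ESC and 192 in NCC, 31.7 and 36.4 times the expected number. The next bin (Btn1a1 and Btn2a2, 5 tRNA genes) had 16.3 and 14.8 times, and the bin over the border of Hist1 distal, with 13 tRNA genes and 5 histone genes, 19.5 and 20.1 times. The first bin inside Hist1 distal without a tRNA gene, chr13:23550001-23600000 with 10 histone genes, had 40 and 57 read pairs, 9.41 (6.72 to 12.8) and 12.7 (9.64 to 16.5) times. At the far end of Hist1 distal, the bins of Hist1h1c and Hist1h4a had 4.35 to 5.45 times. The bin of Hist1h2ac, Hist1h2bc, Hist1h1t and Hist1h4c before them had 0.784 (0.162 to 2.29) and 1.99 (0.857 to 3.91) times, so that its interval lay below theirs in ESC and overlapped them in NCC.

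**Figure D3:**
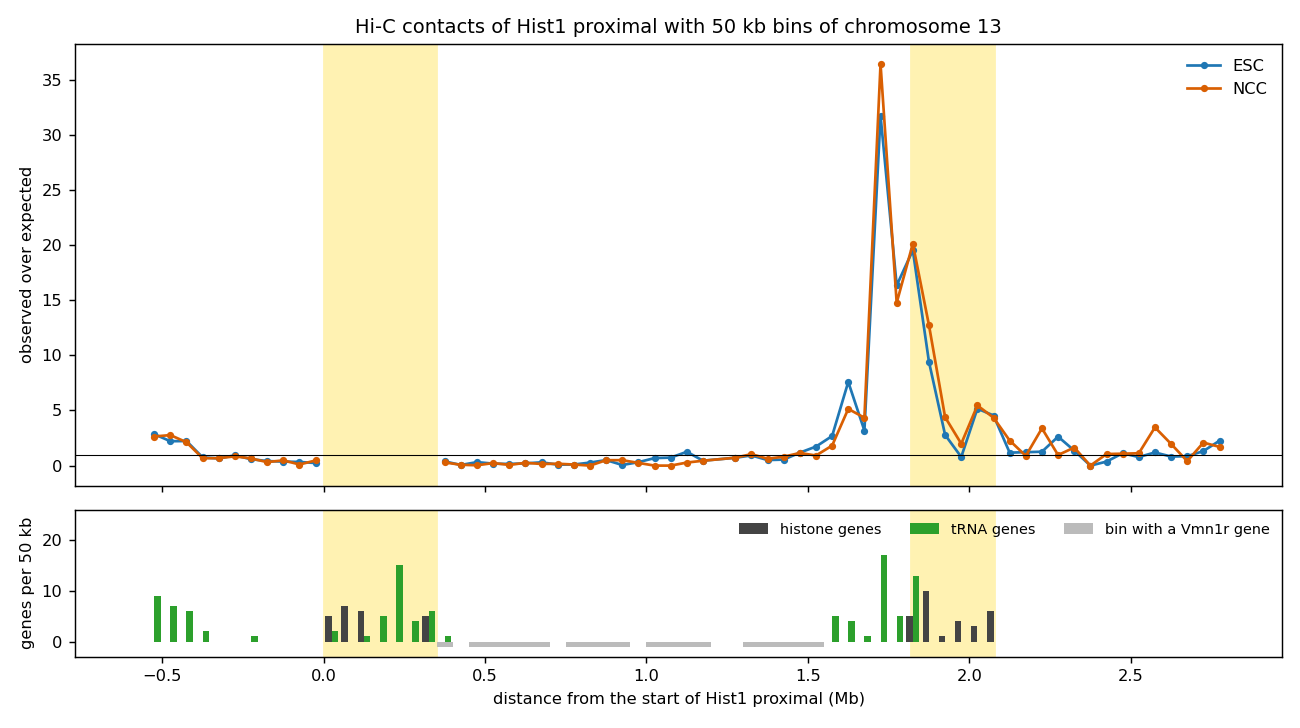
Upper panel: Hi-C read pairs between Hist1 proximal and each 50 kb bin of chromosome 13, as observed over expected at equal distance, in ESC and NCC, by distance from the start of Hist1 proximal in Mb. Lower panel: histone genes and tRNA genes per 50 kb, with grey marks for bins that hold a Vmn1r gene; shading marks both Hist1 windows, and the highest bin, at 31.7 in ESC and 36.4 in NCC, is the one with 17 tRNA genes.

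Histone genes and tRNA genes could be parted by 10 kb bins. Bins of Hist1 proximal with a tRNA gene and no histone gene, against such bins of Hist1 distal and the 120 kb before it, shared 183 read pairs in ESC and 197 in NCC, 39.6 (34.1 to 45.8) and 41.4 (35.8 to 47.5) times the expected number. Bins with a histone gene and no tRNA gene on both sides shared 38 and 40, 15.4 (10.9 to 21.1) and 15.6 (11.2 to 21.3) times. With coverage taken into account, the point values stood in the other order: 9.41 and 11.1 for tRNA gene bins, and 12.8 and 17.98 for histone gene bins. No intervals were computed for these values, so whether this order exceeds counting error was not tested. Bins with neither had 7 read pairs in each cell type, 2.85 (1.15 to 5.87) and 2.73 (1.10 to 5.62) times. Mixed classes were uneven: histone gene bins of Hist1 proximal and tRNA gene bins opposite had 13.8 and 13.5 times, but tRNA gene bins of Hist1 proximal and histone gene bins opposite only 3.97 (2.42 to 6.13) and 4.86 (3.18 to 7.13). Bins of Hist1 proximal with neither kind of gene also met the tRNA gene bins opposite, at 16.1 (12.04 to 21.02) and 13.9 (10.22 to 18.4) times. Raised contact was thus measured between histone gene bins without a tRNA gene as well as between tRNA gene bins without a histone gene.

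A further group of 24 tRNA genes, at chr13:21150000-21350000 before Hist1 proximal, was examined after its contacts were seen. It shared 25 read pairs with Hist1 distal in ESC and 23 in NCC, 3.21 (2.08 to 4.74) and 2.85 (1.80 to 4.27) times the expected number. With the 120 kb before Hist1 distal it shared 49 and 36, 11.6 (8.55 to 15.3) and 8.20 (5.74 to 11.4) times. With coverage taken into account, the values fell to 2.33 in ESC and 2.57 in NCC for Hist1 distal. For the 120 kb before it they fell to 3.22 and 3.18.

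The Vmn1r genes inside the gap made few contacts with the histone windows on either side. Hist1 proximal and the stretch from the first to the last Vmn1r gene shared 151 read pairs in ESC and 111 in NCC, 0.307 (0.260 to 0.360) and 0.224 (0.184 to 0.269) times the number expected at equal distance. For Hist1 distal it was 75 and 51 read pairs, 0.329 (0.259 to 0.412) and 0.221 (0.165 to 0.291) times. Both were lower in NCC, with ratios of 0.718 (0.557 to 0.924) and 0.665 (0.456 to 0.961). The Vmn1r stretch is also the part richest in repeated sequence, and its own strength was lower in NCC, since 16 of its 29 genes with enough ends were past 1.5-fold in favor of ESC and 4 in favor of NCC (10.7% and 8.31% of all protein-coding genes). The part of either in these ratios was not tested.

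**Figure D4:**
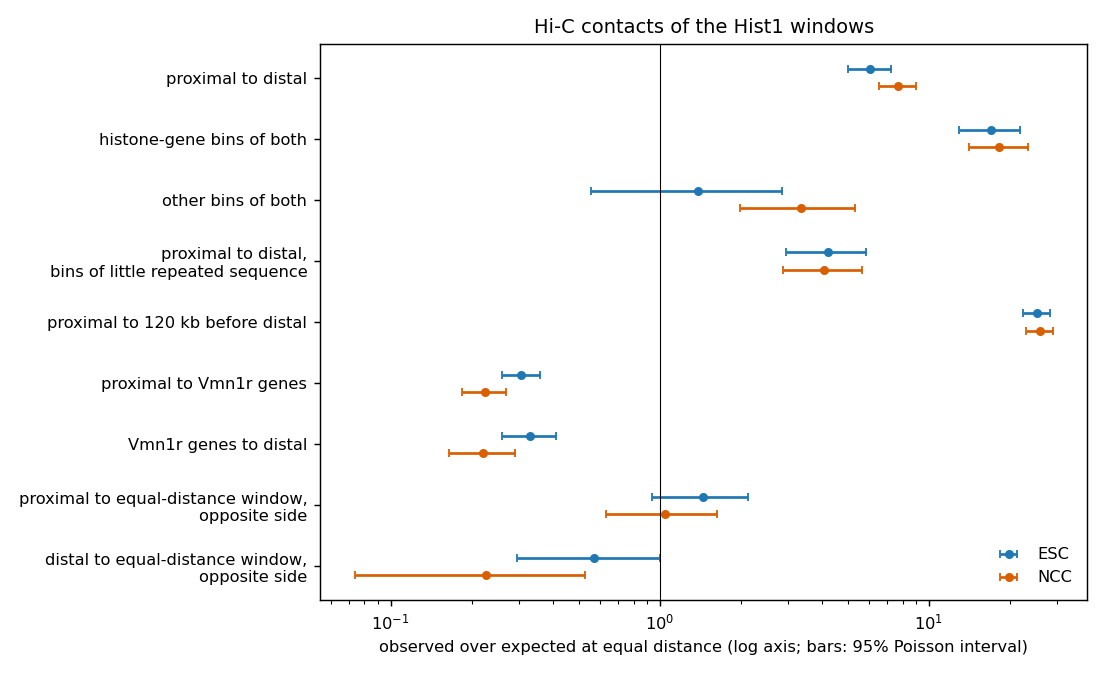
Observed over expected Hi-C read pairs (log axis) for contacts of the Hist1 windows in ESC and NCC, with 95% Poisson intervals that cover counting error only. The line at 1 is the number expected at equal distance. Contacts of both histone windows and with the 120 kb before Hist1 distal lie above it, except that the interval of bins without a histone gene reaches below 1 in ESC, contacts with Vmn1r genes lie below it, and the equal-distance windows on the opposite sides lie at 0.227 to 1.44.

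Contacts between chromosome 13 and chromosome 3 were few. In Hi-C, both Hist1 windows and Hist2 shared 3 read pairs in ESC and 4 in NCC, of which Hist1 distal held 2 and 2, where 0.145 and 0.142 were expected from the inter-chromosomal ends of the windows. This was 20.7 (4.28 to 60.6) and 28.3 (7.70 to 72.4) times the expected number. Each of the 7 interactions rested on a single read pair, so that none is left at a score of at least 2. To set beside the 2 and 2 of Hist1 distal, among pairs of a 260 kb window of chromosome 13 and an 80 kb window of chromosome 3, 0.0211% in ESC and 0.0238% in NCC held at least 2 read pairs, and 0.386% and 0.313% of those with a like expected number did. A difference between the cell types was not detectable at this depth.

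Of these 7 read pairs, 5 had an anchor with a histone gene on chromosome 13, 4 had one on chromosome 3 and 3 had both. Whether these counts exceed the share of such anchors in the windows was not tested. The 10 kb bin of Hist2h4, Hist2h3b and Hist2h2bb alone held 882 of the 2555 Hi-C ends of Hist2 in ESC and 651 of 2594 in NCC. Hist2h4 lay in the anchor of 3 of the 7, opposite the anchor of Hist1h4a, Hist1h3a and Hist1h1a in ESC, and opposite that of Hist1h1d and an anchor without a histone gene (chr13:21860503-21862815) in NCC. The anchor of Hist2h4 holds no repeated 75-base sequence. Of the others, the anchor of Hist2h3b and Hist2h2bb met that of Hist1h2ai, Hist1h3h and Hist1h2bm in NCC, and has 41.5% of repeated sequence. FGFR1 HiChIP held 1 such read pair, in NCC, and CTCF HiChIP none, where a count of 0 allows up to 182 times the expected number in ESC and 308 times in NCC.

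Over the rest of the genome, no 100 kb bin reached the 10 read pairs with the Hist1 windows that were set for naming partners, out of 24324 bins. The following bins were therefore named after their values were seen. The most read pairs, 9 each, went to the bin of Hist2 itself (chr3:96200001-96300000; 3 in ESC and 6 in NCC, 26.6 times the expected number, 12.2 to 50.5) and to chr3:96400001-96500000, which has 13 tRNA and 5 snRNA genes (5 and 4, 21.1 times, 9.65 to 40.05). A bin on chromosome 2 followed with 8 (2.01 times, 0.869 to 3.97), near its expected number, and the bin of Hspa8, a heat shock protein gene, with 7 (35.5 times, 14.3 to 73.2). Among bins with 5 read pairs were those of Hist3h2ba and Hist3h2a on chromosome 11 (10.7 times, 3.48 to 24.98) and of H2afx and Hinfp, the latter a factor for H4 gene transcription, on chromosome 9 (10.4 times, 3.36 to 24.2).

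Gene lists were compared in sums over their bins. The bins of 8 genes for factors of the histone locus body and histone mRNA (Npat, Casp8ap2, Slbp, Lsm10, Lsm11, Zfp473, Cdk2 and Ccne1) shared 8 read pairs with the Hist1 windows, 3.04 times the expected number (1.31 to 5.995). The 10 replication-independent histone genes, of which 1 has the stem-loop, had 13 (3.23 times, 1.72 to 5.52), in 5 of 9 bins. Of these 13, 5 came from the bin of H2afx and Hinfp, which was named above for its value. Bins with at least 5 tRNA genes on other chromosomes had 20 (2.94 times, 1.80 to 4.54), but 6 (1.00 times, 0.367 to 2.18) without the stretch on chromosome 3. Bins with 1 to 4 tRNA genes had 47 (1.48 times, 1.09 to 1.97). Without that stretch they had 46 (1.47 times, 1.08 to 1.96). Bins with no tRNA gene had 0.993 times the expected number (0.961 to 1.02). Inter-chromosomal read pairs in general made up 19.5% of those of Hist1 proximal in ESC and 20.2% in NCC, 18.5% and 20.1% at Hist1 distal, and 16.1% and 17.4% at Hist2. The median tiles of these lengths had 13.9% and 15.9%, 13.6% and 15.6%, and 12.7% and 14.5%. Of the tiles, 97.0% and 92.5% lay below Hist1 proximal, 95.5% and 92.9% below Hist1 distal, and 87.4% and 81.0% below Hist2.

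Interaction anchor strength, the number of read-pair ends in a window, differed little between the cell types in Hi-C. Hist1 proximal had 8457 ends in ESC and 8240 in NCC (NCC over ESC 0.952, adjusted p = 0.00358 by the exact binomial test), Hist1 distal 6229 and 5730 (0.899, adjusted p = 5.38e-08), and Hist2 2555 and 2594 (0.992, adjusted p = 0.780), with adjustment over 9 comparisons of strength. Both ends of a pair can fall in a window, so these p-values are too small. The decreases were ordinary among tiles of the same length, of which 36.9% and 26.7% had a lower ratio than Hist1 proximal and Hist1 distal.

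**Figure D5:**
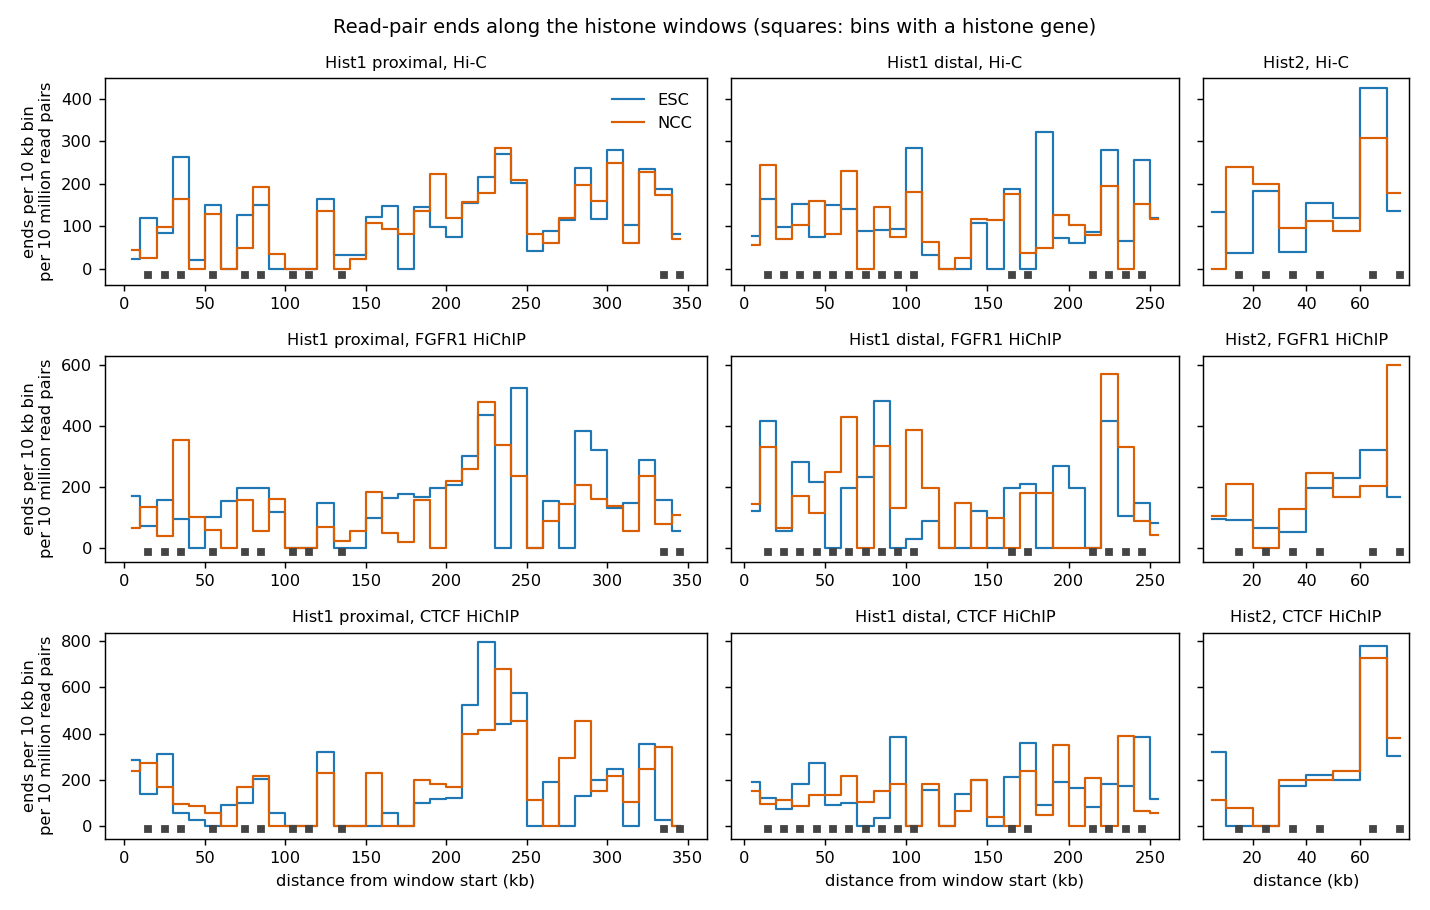
Read-pair ends per 10 kb bin, scaled to 10000000 read pairs, along Hist1 proximal, Hist1 distal and Hist2 (columns) in Hi-C, FGFR1 HiChIP and CTCF HiChIP (rows) for ESC and NCC, by distance from the window start in kb. Squares mark bins with a histone gene; the highest CTCF bins of Hist1 proximal hold no histone gene while the highest of Hist2 holds Hist2h4, and bins at 0 are those in which no anchor has its midpoint in that library.

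Single 10 kb bins differed more, in the sum over the windows about as often as bins elsewhere in Hi-C. In Hi-C, 6 of 31 bins of Hist1 proximal, 9 of 25 of Hist1 distal and 2 of 8 of Hist2 were past 1.5-fold in favor of NCC, where 26.2% of all bins were. In favor of ESC, it was 6, 6 and 1 bins, where 26.8% of all bins were. In FGFR1 HiChIP, 7 of 30 bins of Hist1 proximal, 9 of 24 of Hist1 distal and 3 of 7 of Hist2 were past 1.5-fold in favor of NCC (36.1% of all bins), and 15, 9 and 1 in favor of ESC (31.3%). In CTCF HiChIP, 9 of 21, 6 of 21 and 0 of 6 bins were in favor of NCC (31.8%), and 3, 10 and 1 in favor of ESC (34.3%). Summed over the windows, these CTCF counts fell from 15 and 14 to 5 and 6 at a score of at least 2.

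The histone genes were compared by their ends with 2 kb on each side, with the ends of an anchor spread evenly over it. Per kb and 10000000 Hi-C read pairs (mean of both cell types), the strongest histone genes were all in Hist2: Hist2h4 with 37.4 ends per kb, Hist2h2bb with 30.8 and Hist2h2ab with 30.4, above 93.5%, 87.5% and 87.0% of protein-coding genes. In Hist1 proximal, the neighbours Hist1h2ah (28.2) and Hist1h2bk (26.7) led, followed by Hist1h2ag (17.0). In Hist1 distal, Hist1h3g (23.3), Hist1h4h (22.4) and the linker histone gene Hist1h1e (20.7) led. Of the genes with the fewest ends, Hist1h4m (0, as also Hist1h2ao, Hist1h2bq and Hist1h2br) and Hist1h2ab (1.58) lay in no Hi-C anchor and so have no measured strength, and Hist2h2aa1 (6.62) lay in 1 in NCC only. Repeated sequence made up 91.0% of Hist1h4m, 46.7% of Hist1h2ab and 96.6% of Hist2h2aa1. Among genes in an anchor in both libraries, the values ran from 6.31 (Hist1h2bh) to 37.4 (Hist2h4).

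In Hi-C, 5 of the 56 histone genes with enough ends were past 1.5-fold in favor of NCC and 11 in favor of ESC, where 8.31% and 10.7% of all protein-coding genes, and 13% and 14.7% of those of at most 3 kb, were. The median log2 ratio was -0.16, against -0.03 over all genes. Neighbouring genes can share an anchor, so they are not independent. By family, 2 in favor of NCC and 5 in favor of ESC out of 11 were H4 genes, with 1 and 3 of 12 for H3, 2 and 1 of 13 for H2A, 0 and 1 of 14 for H2B, and 0 and 1 of 6 for H1.

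The genes with the largest ratios were named by rule. Hist1h4k of Hist1 proximal had 45.0 ends in ESC and 186 in NCC (log2 2.01). Hist1h2af of Hist1 distal had 66.9 and 295 (log2 2.10), and its neighbour Hist1h3g 128 and 318 (log2 1.28). None of the 3 genes lay itself in an ESC anchor, so their ESC ends come from the 2 kb on each side. In the other direction, Hist1h3b had 67.3 ends in ESC and lay in no NCC anchor. Hist1h4n lay in no anchor of either Hi-C library, and its 58.0 ESC ends come from the 2 kb on each side. Both had no ends in NCC, so no ratio is given. In Hist2, Hist2h4 had 520 ends in ESC and 363 in NCC (log2 -0.55) and Hist2h2aa1 46.6 and 81.2 (log2 0.76). The genes with the most ends changed little: Hist1h2ah had 267 and 254 (log2 -0.11), Hist1h4h 212 and 208 (log2 -0.06), and Hist1h1e 232 and 284 (log2 0.26). Where the ends were placed at anchor midpoints instead, Hist1h1e had 0 ends in ESC and 385 in NCC.

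In FGFR1 HiChIP, more histone genes were favored in NCC than in ESC. Past 1.5-fold were 18 of 47 genes in favor of NCC and 8 in favor of ESC, where 19.2% and 27.1% of all genes, and 26.9% and 35.1% of genes of at most 3 kb, were. The median log2 ratio was 0.30, against -0.13 over all genes. By window, 5 of 12 genes in Hist1 proximal, 9 of 25 in Hist1 distal and 4 of 10 in Hist2 were in favor of NCC. In favor of ESC it was 3, 5 and 0. Here too neighbouring genes can share an anchor. The 10 kb bins did not show this excess in Hist1 proximal (7 in favor of NCC and 15 of ESC) or Hist1 distal (9 and 9). In Hist2 it was 3 and 1 bins. By family, H4 had 6 of 9 in favor of NCC and none in favor of ESC, H2A 6 and 3 of 11, H3 3 and 1 of 11, H2B 2 and 3 of 11, and H1 1 and 1 of 5. For Hist2h4, the ends were 33 in ESC and 65 in NCC, and for Hist1h1e 8 and 93.1. More histone genes also lay in an anchor in NCC, 42 against 32 of 62, and the NCC library was the deeper; the part of either in these counts was not tested. CTCF HiChIP had enough ends for 25 genes only, 5 of them in favor of each cell type (22.5% and 26.5% of all genes, and 27.8% and 27.5% of those of at most 3 kb).

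The other histone genes and the genes for factors of histone mRNA were read in Hi-C against the same shares of all genes, 8.31% in favor of NCC and 10.7% in favor of ESC. Of the 8 factor genes, none was past 1.5-fold in either direction, with Slbp at 692 ends in ESC and 814 in NCC (log2 0.20) and Npat at 727 and 805 (log2 0.11). Of the 10 replication-independent histone genes, 2 were in favor of ESC, Cenpa, the centromeric H3 (log2 -0.72), and H2afv, an H2A.Z gene (log2 -0.62). The H3.3 gene H3f3b had 554 and 804 ends (log2 0.50). Of the 5 histone genes outside the windows, Hist1h2ba and Hist1h2aa, which lie on chromosome 13 past the end of Hist1 distal and are known as testis histones, were both past 1.5-fold in favor of NCC with few ends (10.98 in ESC and 103 in NCC, and 9.39 and 101). These genes are neighbours that can share an anchor, so they are not independent. Among the 5 genes, 3 lay in a Hi-C anchor in ESC and 5 in NCC.

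At the windows as a whole, HiChIP ends were compared with Hi-C ends of the same cell type. FGFR1 HiChIP over Hi-C was 1.30 in ESC (1.23 to 1.38) and 1.14 in NCC (1.07 to 1.202) at Hist1 proximal, 1.28 (1.2002 to 1.37) and 1.55 (1.46 to 1.64) at Hist1 distal, and 0.982 (0.872 to 1.10) and 1.35 (1.23 to 1.49) at Hist2. Without the strongest 1% of anchors, the NCC values turned to 0.924, 0.806 and 0.728. CTCF HiChIP over Hi-C was 1.34 and 1.59 at Hist1 proximal, 1.30 and 1.19 at Hist1 distal, and 1.62 and 1.58 at Hist2. Among tiles of the same length, these ratios lay above 49.3% to 84.97%. In absolute density, Hist2 stood highest of the windows in CTCF HiChIP and in FGFR1 HiChIP of NCC. Its FGFR1 ends in NCC, 6.63 per kb, lay above 98.6% of tiles, and its CTCF ends above 96.6% in ESC and 97.1% in NCC, where its Hi-C ends lay above 77.9% and 76.5%. Its FGFR1 ends in ESC lay above 83.4%, against 87.6% and 85.8% for Hist1 proximal and Hist1 distal. In NCC, the FGFR1 ends of Hist1 distal lay above 96.4% and the CTCF ends of Hist1 proximal above 94.2%. The remaining FGFR1 and CTCF densities of the Hist1 windows lay above 73.8% to 85.5%.

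Bins of 10 kb past 2-fold over Hi-C were counted beside the share of all bins, with few bins in each window and no test. For FGFR1 it was 5 of 29 in Hist1 proximal, 8 of 23 in Hist1 distal and 1 of 8 in Hist2 in ESC (20.4% of all bins), and 6 of 30, 10 of 24 and 2 of 7 in NCC (23.4%). For CTCF it was 6 of 29, 7 of 22 and 3 of 8 in ESC (19.3%), and 10 of 29, 7 of 23 and 4 of 7 in NCC (20.4%).

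Between the cell types, the ends of Hist2 were 322 in ESC and 530 in NCC in FGFR1 HiChIP, a ratio of 1.37 (1.19 to 1.58; adjusted p = 2.62e-05 by the exact binomial test). The ratio turned to 0.776 without the strongest 1% of anchors (adjusted p = 0.00340 by the exact test), and was 1.10 without a call with anchors by any overlap. At Hist1 proximal it was 0.832 (0.773 to 0.897; adjusted p = 5.28e-06 by the same exact test), and at Hist1 distal 1.08 (0.998 to 1.18; adjusted p = 0.0703). In CTCF HiChIP the ratios were 1.13 (1.01 to 1.26; adjusted p = 0.0408 by the exact test) at Hist1 proximal, 0.822 (0.713 to 0.947; adjusted p = 0.0109) at Hist1 distal and 0.968 (0.7996 to 1.17) at Hist2. The CTCF call of Hist1 proximal was lost with scaling to intra-chromosomal read pairs (1.04), with read pairs inside 1 anchor left out (1.12) and without the strongest 1% of anchors (0.965), and that of Hist1 distal with read pairs inside 1 anchor left out (0.847). Of tiles of the same length, 76.7% had a lower FGFR1 ratio than Hist2 and 25.9% a lower one than Hist1 proximal.

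Contacts within Hist2 gave the only adjusted p under the threshold among the 18 comparisons of contacts. In FGFR1 HiChIP, 5 read pairs in ESC and 25 in NCC joined anchors of Hist2 at least 20 kb apart, a ratio of 4.16 (1.56 to 13.9; adjusted p = 0.0260 by the exact binomial test). Among 4747 tiles of this length with enough read pairs, 97.8% had a lower ratio and 20.9% were past 1.5-fold in favor of NCC. The call was lost with anchors taken by any overlap (1.39) and without the strongest 1% of anchors (1.32), and it turned to 0.831 in bins with little repeated sequence. Within Hist1 proximal, CTCF HiChIP had 62 and 85 read pairs, a ratio of 1.58 (1.13 to 2.23), which did not pass (adjusted p = 0.0562 by the exact binomial test). At a score of at least 2 it passed, with a ratio of 2.94 (1.72 to 5.15; adjusted p = 0.000425 by the same exact test).

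Sites for CTCF were looked for by its consensus, on both strands, since CTCF sites in facing directions are known to border loops. The windows hold 4 matches, all on the minus strand, and 4.57% of all 10 kb bins of the genome hold at least 1. The matched letters are in capitals, and the sites are shown because their bins could be compared with the CTCF HiChIP ends.
Hist1 proximal, chr13:21734277-21734296: atggCCACTAGAGGGCactc
Hist1 proximal, chr13:22006492-22006511: gaaaCCAGTAGAGGGCggtt
Hist1 distal, chr13:23598171-23598190: gaaaCCACTAGGTGGCgctg
Hist1 distal, chr13:23604946-23604965: ccatCCACCAGGTGGCatgg
The CTCF HiChIP ends of their 10 kb bins were 7 in ESC and 10 in NCC at the first, 30 and 23 at the second, 0 and 11 at the third, and 4 and 16 at the last. No site of this consensus was found in Hist2, whose CTCF ends per kb (3.04 in ESC and 2.55 in NCC) were the densest of the windows.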

How the data were processed

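Hi-C, FGFR1 HiChIP and CTCF HiChIP were done by the authors in ESC and NCC. The deposited score of each interaction is a count of read pairs. The authors used HiC-Pro on reads of 75 bases (mm10, duplicates removed) and then hichipper, with anchors called in each library, and merged 2 replicates in each table. The tables hold no q value, their scores are whole numbers from 1, and their totals differ. The authors' methods scale valid pairs between cell types for comparisons and filter by q in some analyses; whether the deposited tables were scaled, and tool versions, are not given in the sources used here. Libraries hold 1056437 to 21228099 read pairs on 20 chromosomes. Anchor borders were checked to lie at GATC sites.

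The members and gene lists were chosen with earlier results of these data known. Groups were taken from the sample labels. Anchors were placed by midpoint, and for single genes their ends were spread over their length, which was chosen after the data were seen. Libraries were scaled to the same number of read pairs. Contacts and ends were compared by two-sided exact binomial tests with Benjamini-Hochberg adjustment and a threshold of 0.05, and called against equal distance by 95% Poisson intervals, over bins of 10 kb with ends in either Hi-C table. Bins and genes were compared with at least 50 (Hi-C) or 20 (HiChIP) ends, and gene ratios had a pseudocount of 0.5. Named genes were the 3 with the most and the 1 with the fewest Hi-C ends per kb in each window, those with the largest ratio in each direction, and the top 3 bin pairs. Alternatives changed anchor placement, minimum score, strongest anchors, scaling, distance, bins and repeated sequence. Genes were taken from GENCODE vM21, and sequences and tRNA genes from RefSeq (GRCm38.p6). Steps were tested on simulated data. Python 3.11.15, numpy 2.4.6, pandas 2.3.3 and scipy 1.17.1 were used.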

Additional observations from a re-analysis of the deposited data

How the results depend on the processing

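No paired analysis was possible because the deposited tables merge both replicates, and for the same reason no replicate could be left out. Of the values that answer a comparison, the contact of the Hist1 windows against equal distance kept its direction in Hi-C and FGFR1 HiChIP under all alternatives, from 4.22 to 38.8 times the expected number in ESC Hi-C and 4.09 to 40.2 in NCC Hi-C, and the ratio of NCC over ESC of this contact in Hi-C ran from 1.00 to 1.31. At a score of at least 2, no read pair was left between the Hist1 windows in CTCF HiChIP (0 in ESC and 0 in NCC) or between Hist1 and Hist2 in Hi-C (0 and 0), since all were single read pairs. Other values changed side or lost or gained a call. At a score of at least 2, ratios turned to 1.01 within Hist1 proximal in Hi-C, to 1.37 and 0.837 within Hist1 proximal and distal in FGFR1 HiChIP, to 0.896 between them in FGFR1 HiChIP, to 0.881 within Hist1 distal in CTCF HiChIP, and to 1.05 for the CTCF ends of Hist2, the ratio within Hist1 proximal in CTCF HiChIP gained a call (2.94), while FGFR1 over Hi-C at Hist2 in ESC turned to 1.13. Without the strongest 1% of anchors they turned to 0.762 within Hist1 distal and 0.864 between the Hist1 windows in FGFR1 HiChIP, to 0.714 and 0.776 for the FGFR1 ends of Hist1 distal and Hist2, and to 0.965 for the CTCF ends of Hist1 proximal, FGFR1 over Hi-C in NCC turned to 0.924, 0.806 and 0.728 at Hist1 proximal, Hist1 distal and Hist2, and the ratio within Hist2 in FGFR1 HiChIP lost its call (1.32), as it did with anchors by any overlap (1.39). In bins of at most 5% repeated sequence, added after seeing the data, ratios were 1.02 within Hist1 proximal and 1.51 within Hist2 in Hi-C, 1.005 within Hist1 proximal, 0.997 within Hist1 distal and 0.831 within Hist2 in FGFR1 HiChIP, and 0.577 between the Hist1 windows in CTCF HiChIP. Scaling to intra-chromosomal read pairs gave 1.00 within Hist1 proximal in Hi-C and 0.941 between the Hist1 windows in CTCF HiChIP, and the CTCF ends of Hist1 proximal lost their call (1.04). At least 50 kb apart, the ratio within Hist2 was 1.15 in Hi-C and that within Hist1 distal 0.961 in CTCF HiChIP, where any distance gave 0.881. With read pairs inside 1 anchor left out, the ends of Hist1 proximal lost their call in Hi-C (0.971) those of Hist2 turned to 1.01, and the CTCF ends of Hist1 proximal (1.12) and Hist1 distal (0.847) lost theirs. Bins past the fold in Hi-C fell from 17 to 9 in favor of NCC with anchors by any overlap, and to 9 and 7 in favor of NCC and ESC at 2-fold, and those in CTCF HiChIP from 15 and 14 to 5 and 6 at a score of at least 2. The FGFR1 ends of Hist1 distal gained a call (1.12) with anchors by any overlap and at a score of at least 2, those of Hist2 lost theirs with anchors by any overlap (1.10), and the ratio within Hist1 proximal in FGFR1 HiChIP gained one at any distance (0.791). The cause of these changes was not tested. Depth limits the contacts with chromosome 3 and those between the Hist1 windows in CTCF HiChIP, where counts were under 10.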
